A study of Mus musculus with 6 samples.

Results

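Expression of 9 genes that write, erase or read DNA methylation was compared between young and aged mouse RPE/choroid. The genes were taken by symbol from a table of 33924 genes, and all 9 were found in it. They are the methyltransferases Dnmt1, Dnmt3a and Dnmt3b, the dioxygenases Tet1, Tet2 and Tet3, and the methyl-CpG binding proteins Mbd1, Mbd2 and Mbd3. RPE/choroid is a mixed tissue of retinal pigment epithelium and of the blood vessels, stroma and pigment cells underneath, here taken off the sclera of purchased wild-type C57BL/6J mice, 2 eyes to a sample. There were 3 libraries of total RNA from young mice (1 to 2 months by the labels) and 3 from aged mice (20 to 24 months by the titles, 22 to 24 months by another label), all labelled male. The written methods differ from the labels in including females and in making the young mice somewhat older. No mouse carried a transgene or received a treatment. The deposited table summarizes all 6 libraries of a gene by a single mean level, in normalized counts, and a single log2 fold change, whose standard error is written SE below. No value per mouse can therefore be shown, and the spread between mice enters only through the SE. The table does not say which group is the numerator. The sign was set from the numbers of genes that the study describes as higher in each group, and every direction below depends on it. With this sign, 10 of 11 tested macrophage markers were higher in aged mice. Of 8 fibroblast and matrix genes, 5 were lower and 1 was higher. The study itself reports immune genes as raised and genes of matrix organization as lowered in aged RPE.

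In mammals, DNA methylation is placed mostly on the cytosine of CpG dinucleotides. Dnmt1 copies the mark onto the new strand after replication, and Dnmt3a and Dnmt3b place it on unmethylated DNA. The Tet enzymes oxidize 5-methylcytosine to 5-hydroxymethylcytosine and further, which opens the way to its removal, and they need oxygen, iron and 2-oxoglutarate. Mbd1 and Mbd2 bind methylated CpG and recruit repressors. Mbd2 and Mbd3 are alternative subunits of the NuRD complex, which remodels nucleosomes and removes acetyl groups from histones, and mammalian Mbd3 itself binds methylated CpG poorly. The RPE is a postmitotic epithelium, so that most of its cells do not replicate the mark, whereas the choroid holds vascular, stromal, pigment and immune cells. The data are of RNA only, and neither DNA methylation nor any protein of these genes was measured in them.

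The 9 genes did not move in 1 direction. Tet1, Tet2 and Dnmt3a were lower in aged mice, and Mbd2 and Mbd3 were higher. Dnmt1, Dnmt3b, Tet3 and Mbd1 did not pass an adjusted p under 0.05. By role, 2 of 3 erasers and 1 of 3 writers fell with 0 rising, and 2 of 3 readers rose with 0 falling. Hence 5 of 9 members differed, where 21.2% of the 18636 genes tested differed in either direction. Higher in aged mice were 2 of 9 members, against 11.3% of all genes tested, and lower were 3 of 9, against 9.92%. The median log2 fold change of the members was -0.34, and that of all genes tested was -0.01. All 9 members passed the low-count filter of the table. A value for bulk tissue cannot tell fewer cells of a type from less RNA per cell.

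**Figure D1:**
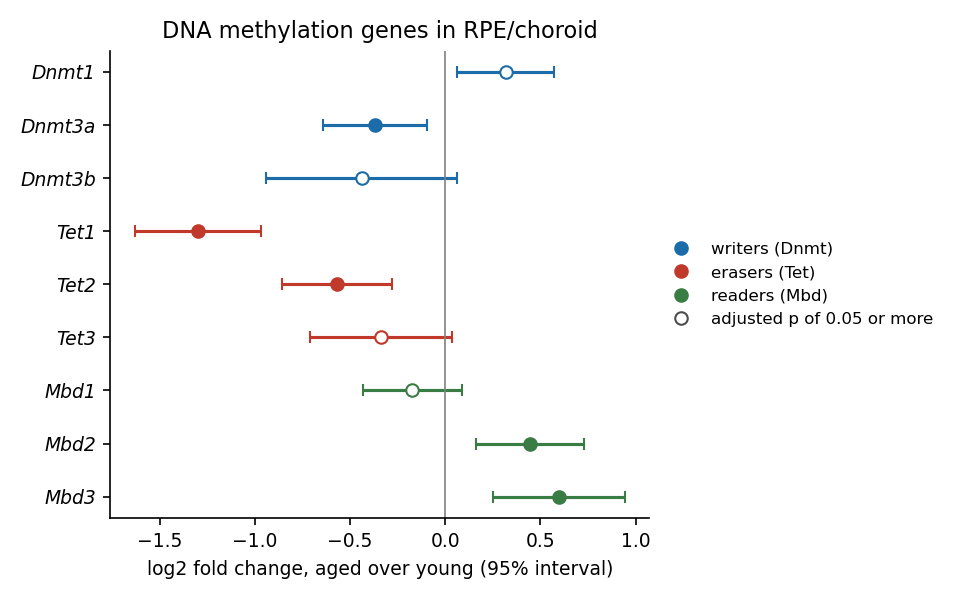
Log2 fold change of each member, aged over young (x axis), with its 95% interval from the SE over 3 young and 3 aged libraries. Filled points have an adjusted p under 0.05: Tet1, Tet2 and Dnmt3a lie to the left of 0 and Mbd2 and Mbd3 to the right, while the intervals of Dnmt3b, Tet3 and Mbd1 span 0.

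The erasers showed the largest change. Tet1 has a CXXC domain, which binds unmethylated CpG, and is best known from embryonic and germ cells, and it lies on chromosome 10 at 62804570 to 62908996 (GRCm38, minus strand). Its mean over the 6 libraries was 534 normalized counts, which a fold change of this size divides into 760 in young and 309 in aged mice. The log2 fold change was -1.30 (SE 0.17, adjusted p 9.63e-13), with a 95% interval from -1.63 to -0.97. Aged tissue thus held 0.406 of the young Tet1 level, with an interval from 0.323 to 0.511. Of the 1849 genes that were lower in aged mice, 445 fell at least as far, or 24.1%.

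Tet2, on chromosome 3 at 133463679 to 133545139, has no CXXC domain of its own and is abundant in blood cells. It had a mean of 1462 normalized counts, or 1747 in young and 1177 in aged mice. Its log2 fold change was -0.57 (SE 0.15, adjusted p 0.00130), and aged tissue held 0.674 of the young level (interval 0.551 to 0.824). The intervals of Tet1 and Tet2 on the log2 scale do not overlap, as that of Tet2 runs from -0.86 to -0.28. A difference between the falls of Tet1 and Tet2 was not tested. Of the 1849 genes that were lower, 1516 fell at least as far as Tet2.

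Tet3, on chromosome 6 at 83362373 to 83459084, is best known from the oocyte and from neurons. Its mean was 1016 normalized counts and its log2 fold change -0.34 (SE 0.19, adjusted p 0.202). The interval, from -0.71 to 0.03, takes in both no change and a fall as large as that of Tet2. Its SE was larger than the median SE of 0.15 among genes of like abundance, meaning a mean within 1.5 times its own.

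Among the readers, the largest rise was that of Mbd3, on chromosome 10 at 80392539 to 80399550. Its mean was 592 normalized counts, or 471 in young and 713 in aged mice. The log2 fold change was 0.60 (SE 0.18, adjusted p 0.00594), which is 1.51 times the young level (interval 1.19 to 1.92). Mbd2, the other NuRD subunit of this family, lies on chromosome 18 and had a mean of 1662 normalized counts, or 1408 in young and 1917 in aged mice. It rose by 0.44 on the log2 scale (SE 0.14, adjusted p 0.0145), or 1.36 times (interval 1.12 to 1.66). The intervals of Mbd2 (0.16 to 0.73) and Mbd3 (0.25 to 0.94) overlap over most of their length, and a difference between the rises of the pair was not tested. Such rises were not extreme, since of the 2100 genes that were higher, 1259 rose at least as far as Mbd3 and 1733 as far as Mbd2.

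Mbd1, also on chromosome 18, carries CXXC domains beside its methyl-CpG binding domain. It had a mean of 775 normalized counts, in the same range as Mbd3, and changed by -0.17 on the log2 scale (SE 0.13, adjusted p 0.379). Its interval, from -0.43 to 0.09, lies below that of Mbd3 and below that of Mbd2, so a rise of the size seen for either lies outside it. A difference between Mbd1 and either gene was not tested.

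Of the writers only Dnmt3a was called. Dnmt3a (chromosome 12, 3806007 to 3914443) had the highest mean of the members in normalized counts, 2849, or 3211 in young and 2487 in aged mice. It fell by 0.37 on the log2 scale (SE 0.14, adjusted p 0.0403), which left 0.774 of the young level (interval 0.641 to 0.935). When genes of low counts also entered the adjustment, the adjusted p of Dnmt3a was 0.0565, and when fold changes were centred on abundant genes it was 0.0126.

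Dnmt1, the maintenance enzyme on chromosome 9 at 20907209 to 20959888, had a mean of 1243 normalized counts, or 1107 in young and 1379 in aged mice. Its log2 fold change was 0.32 (SE 0.13), with an interval from 0.06 to 0.57. The unadjusted p was 0.0144 and the adjusted p 0.0629, so Dnmt1 was not called. The adjusted p of Dnmt1 ran from 0.0593 to 0.156 under the other ways of processing. The smallest absolute log2 fold change called among genes of like abundance was 0.31, close to its own. The interval of Dnmt1 lies wholly above that of Dnmt3a, which runs from -0.64 to -0.10, but a difference between the 2 genes was not tested.

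Dnmt3b, on chromosome 2 at 153649450 to 153687730, is mainly an enzyme of the early embryo. It was the least abundant member, with a mean of 81.0 normalized counts. The log2 fold change of -0.44 (SE 0.26, adjusted p 0.220) is larger than that of Dnmt3a, but the interval reaches from -0.94 to 0.06. At this abundance no change under 0.57 was called, so a fall of the size of that of Dnmt3a was not detectable for Dnmt3b. Of its 31-base words, a share of 0.865 occurs in no other gene, and 699 are shared with its tandem paralog Dnmt3c. For the other 8 members the share ran from 0.983 to 0.999, so few of their reads could belong to another gene.

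**Figure D2:**
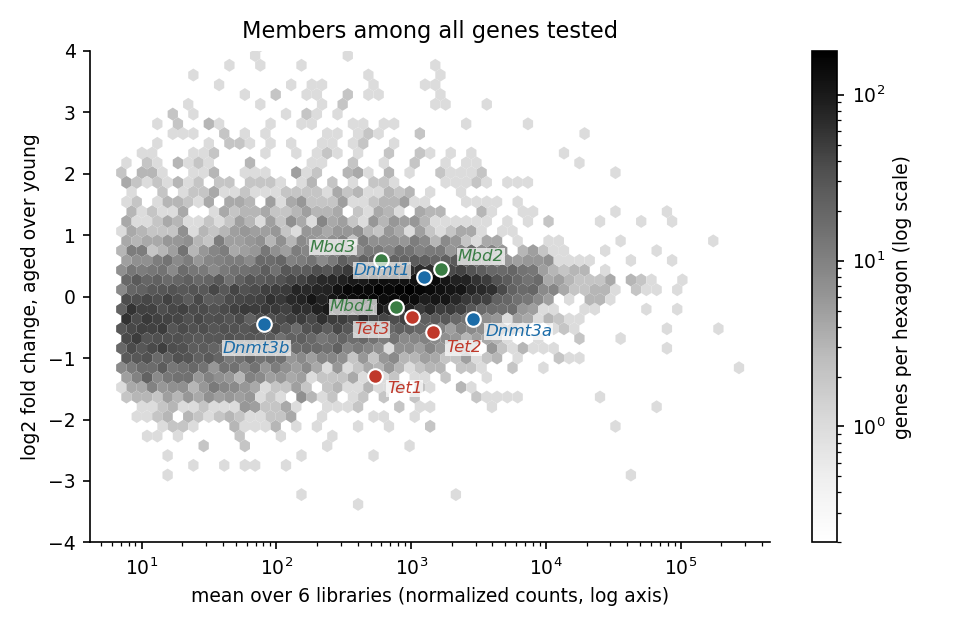
Log2 fold change, aged over young, against the mean over the 6 libraries (log axis) for the 18636 genes tested, as hexagons shaded by their number of genes, with the 9 members as coloured points (blue writers, red erasers, green readers). 20 genes beyond a log2 fold change of 4 are off the axis. Tet1, at -1.30, lies below the bulk of the genes, and the other members lie within 0.60 of 0.

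Levels of different genes were compared per kilobase of the longest coding transcript. On this scale the order from high to low was Mbd2 (851 normalized counts per kilobase), Mbd3 (356), Dnmt3a (294), Dnmt1 (212), Mbd1 (198), Tet2 (159), Tet3 (93.2), Tet1 (37.2) and Dnmt3b (18.7). The step from Mbd2 to Mbd3 is 2.39 times and that from Tet3 to Tet1 2.51 times. Dnmt1 and Mbd1 are 1.07 times apart, and since no spread over libraries is given for a level, they and other close neighbours cannot be put in order. The order rests on the length used, because the median coding transcript is only 567 bases for Tet1, against 14369 for the longest, and 814 against 9685 for Dnmt3a. Per kilobase of the median transcript, Dnmt3a (3500) came first and Tet1 (943) lay close to Mbd2 (1025). Without division by length, Dnmt3a again came first. Dnmt3b was the lowest on each of these scales.

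The division among relatives was worked out as well. Summed per kilobase, the 3 Tet genes stood at 347 in young and 232 in aged mice, so that the sum fell by 33.2%. Tet2 made up 54.8% of the sum in young and 55.3% in aged mice. The share of Tet1 went from 15.2% to 9.26%, while Tet3, at 104 in young and 82.3 in aged mice, came to 35.5% of the aged sum. The 3 Dnmt genes summed to 542 in young and 508 in aged mice, a change of -0.09 on the log2 scale. Within that sum, Dnmt3a went from 61.2% to 50.6% and Dnmt1, which was not called, from 34.8% to 46.3%. The sum of the 3 Mbd genes went from 1214 to 1596 through Mbd2 and Mbd3, whereas Mbd1 stood at 209 in young and 186 in aged mice. These sums and shares hold for the longest transcripts, are worked out from the mean and fold change of each gene, and carry no error. With median transcript lengths, a scale added after the data were seen, the log2 change of the sum was -0.33 for the Dnmt genes, -1.01 for the Tet genes and 0.39 for the Mbd genes, and Tet1 made up 70.6% of the young Tet sum. On that scale Dnmt3a made up 94.6% of the Dnmt sum in young and 91.9% in aged mice, and Dnmt1 4.87% and 7.61%. Without division by length the log2 changes of the sums were -0.16, -0.61 and 0.31. The shares within the Tet and Dnmt sums thus rest on the length chosen.

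**Figure D3:**
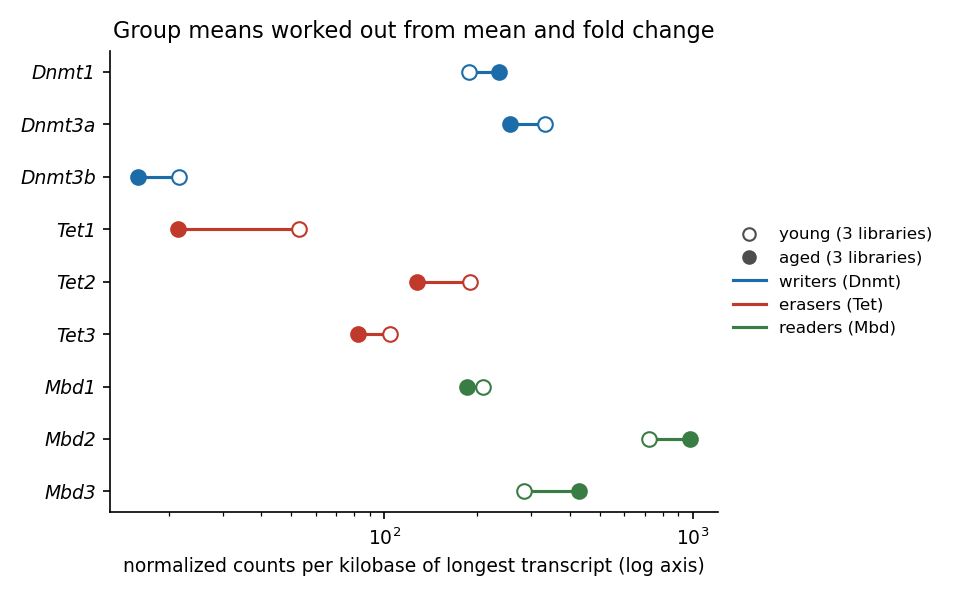
Level of each member in young (open) and aged (filled) RPE/choroid, in normalized counts per kilobase of the longest coding transcript on a log axis, each a group mean over 3 libraries worked out from the mean and the fold change, without an error. The longest line is that of Tet1, from 52.9 to 21.5, and the highest pair is that of Mbd2, from 721 to 981.

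The promoters of these genes are themselves sequences on which methylation can act, and the windows of Tet1 (the largest fall), Tet2 (the other eraser that fell) and Mbd3 (the largest rise) are shown for that reason. Each runs from 250 bases before to 50 bases after a RefSeq start (GRCm38.p6, minus strand, 5′ to 3′), with every CpG in capitals. They lie at chr10:62887275-62887574 for Tet1, chr3:133544341-133544640 for Tet2 and chr10:80399482-80399781 for Mbd3, and the windows of Tet1 and Tet2 are at starts inside the annotated genes.
Tet1: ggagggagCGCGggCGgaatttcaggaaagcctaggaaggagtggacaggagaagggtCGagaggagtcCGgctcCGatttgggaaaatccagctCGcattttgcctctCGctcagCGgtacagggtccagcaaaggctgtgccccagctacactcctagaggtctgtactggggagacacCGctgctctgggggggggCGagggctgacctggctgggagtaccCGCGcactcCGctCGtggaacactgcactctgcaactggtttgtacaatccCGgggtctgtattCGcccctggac
Tet2: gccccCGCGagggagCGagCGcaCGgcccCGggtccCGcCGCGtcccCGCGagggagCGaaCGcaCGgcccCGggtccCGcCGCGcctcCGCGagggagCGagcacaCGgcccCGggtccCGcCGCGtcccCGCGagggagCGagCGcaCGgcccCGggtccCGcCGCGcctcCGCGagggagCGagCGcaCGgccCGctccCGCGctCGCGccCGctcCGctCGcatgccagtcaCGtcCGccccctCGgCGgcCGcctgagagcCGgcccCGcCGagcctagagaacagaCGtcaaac
Mbd3: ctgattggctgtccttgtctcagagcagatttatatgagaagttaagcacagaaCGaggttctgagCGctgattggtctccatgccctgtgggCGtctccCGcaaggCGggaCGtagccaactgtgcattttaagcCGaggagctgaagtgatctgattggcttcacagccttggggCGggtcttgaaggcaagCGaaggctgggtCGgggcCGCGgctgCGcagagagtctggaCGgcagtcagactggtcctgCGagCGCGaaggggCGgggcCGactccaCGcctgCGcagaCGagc
The Tet2 window holds 57 CpG, and only 0.152% of the 32851 RefSeq windows of the same length hold as many. The Mbd3 window holds 22 and the Tet1 window 17, numbers reached by 23.1% and 31.4% of all windows. The median over all windows was 7.

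Of the members, 7 had windows in the RefSeq table, 11 windows in all, and Mbd1 and Mbd2 had no entry. The 2 windows at the outer Dnmt3a starts held 46 and 47 CpG, and the window at its start farther inside the gene held 18. For Dnmt1 the number was 2 at the outermost start, 12 at the next and 33 at the innermost. Dnmt3b had 30 and Tet3 had 22. The GC box GGGCGG, to which Sp1 and related factors bind, occurred on either strand in 9 of the 11 windows, against 35.7% of all windows. The letters of this box include a CpG, so it is not independent of the CpG number. Nor are windows of the same gene independent of each other, and the 2 at the outer Dnmt3a starts overlap. The CCAAT box, searched as CCAAT on both strands, occurred in 4 of 11 windows and 37.4% of all, with 5 copies at the outermost and 3 at the innermost Dnmt1 start and 3 in the Mbd3 window. The E box CACGTG was found in 1 window, that of the inner Dnmt3a start (7.15% of all windows). The TATA box TATAAA, searched on both strands, was found in 1 window, that of Mbd3 (13.6% of all windows). It lies there only on the strand opposite to the one printed.

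**Figure D4:**
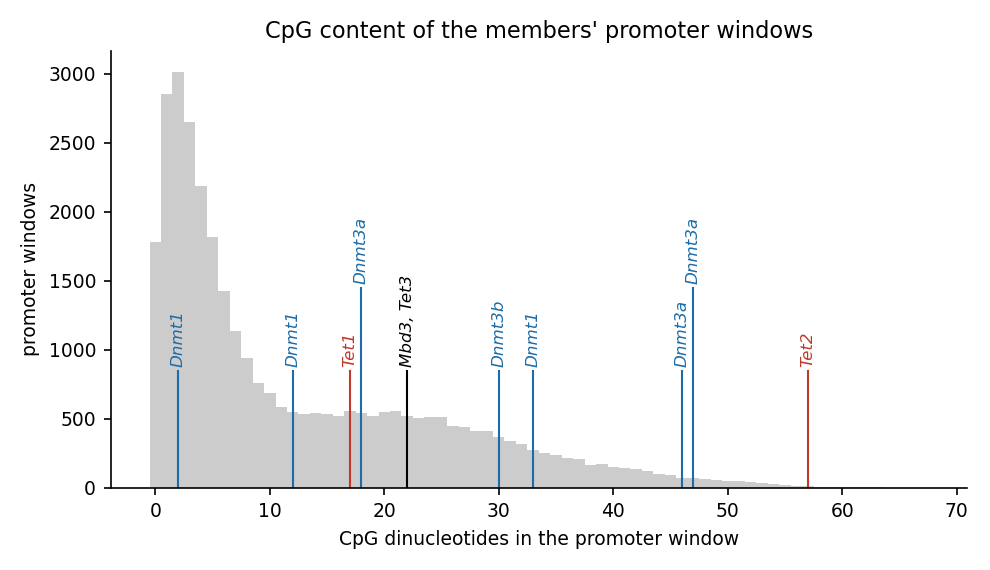
Number of CpG dinucleotides (x axis) in 32851 RefSeq promoter windows of 300 bases (grey bars, number of windows), with the 11 windows of the members as labelled lines. Tet2 (57) and the outer Dnmt3a starts (46 and 47) lie in the far tail, and the outermost Dnmt1 start (2) lies in the main peak.

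Partner and pathway genes were then taken in 8 lists. Over these lists 13 of 75 tested genes differed, a share below the 21.2% of all genes tested. Genes that work with the writers were 10 in all, of which 8 were tested. Of these, 4 were lower in aged mice and 0 were higher, and the median log2 fold change was -0.63. Uhrf1, which brings Dnmt1 to newly replicated DNA, fell by 0.88 (SE 0.23, adjusted p 0.00169), although Dnmt1 itself stood at 0.32. Hells and Cdca7 together form a nucleosome remodeler needed for methylation of repeats, and they fell by 0.87 (SE 0.29, adjusted p 0.0181) and 1.09 (SE 0.32, adjusted p 0.00553). Zfp57, which keeps methylation at imprinted loci, fell by 1.12 (SE 0.24, adjusted p 4.35e-05). These 4 genes are scarce, at 93.7 to 154 normalized counts, and a required mean of at least 100 left 2 of the calls, those of Hells and Zfp57. The abundant Usp7 and Trim28 had log2 fold changes of 0.02 (adjusted p 0.915) and 0.27 (adjusted p 0.208). Dnmt3l and Dppa3, at 2.22 and 2.99 normalized counts, were too low for an adjusted p.

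Uhrf1, Hells and Cdca7 are also expressed most in dividing cells, and 18 markers of division were measured beside them. Of these, 1 was lower (Top2a) and 0 were higher, against 9.92% and 11.3% of all genes tested. The median log2 fold change of the markers was -0.33. Below 0 lay 15 of 18, and of all 18636 genes tested 9414. After centring Mcm7 was called as well, at -0.46 (adjusted p 0.0231), which made 2 lower. Pcna, the most abundant of them and the clamp on which Dnmt1 acts at the fork, had 0.27 (SE 0.14, adjusted p 0.148), and Mcm6 had -0.09 (adjusted p 0.752). Their part in the values of Dnmt1, Uhrf1, Hells and Cdca7 was not tested.

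On the side of erasure, 16 of 17 genes of base excision, deamination and the Gadd45 adaptors were tested, with a median of 0.11. Of these 16, 4 were higher and 1 was lower, against 11.3% and 9.92% of all genes tested. Tdg, the glycosylase that cuts out the oxidized bases made by Tet enzymes, was the one that fell, by 0.87 (SE 0.17, adjusted p 3.53e-06). The adaptors Gadd45a and Gadd45b, which are stress genes implicated in demethylation, rose by 1.12 (SE 0.21, adjusted p 1.45e-06) and 1.06 (SE 0.18, adjusted p 3.21e-07). Apobec1, a cytidine deaminase known for editing Apob mRNA and expressed in myeloid cells, had the largest value, 1.68 (SE 0.14, adjusted p 1.17e-32). The glycosylase gene Neil2 rose by 0.63 (SE 0.24, adjusted p 0.0452), a call lost without the filter on low counts (adjusted p 0.0634) and after centring (adjusted p 0.0786). Parp1 and Apobec2, the most abundant genes of this list that were not called, stood at 0.22 and -0.08.

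Of 7 genes that modify Tet enzymes or supply and clear their cofactors, 2 were lower and 0 higher, with a median of -0.07, and a count of 2 in 7 is near the 21.2% of all genes tested. Ogt, the O-GlcNAc transferase that binds Tet2 and Tet3, fell by 0.65 (SE 0.17, adjusted p 0.00184) from a mean of 4219 normalized counts. Slc23a1, a vitamin C transporter, fell by 0.88 (SE 0.32, adjusted p 0.0348) at only 50.2 normalized counts, whereas the more abundant transporter Slc23a2 had 0.20 (adjusted p 0.220). Idh1 and Idh2, which make 2-oxoglutarate, had 0.36 (adjusted p 0.0840) and -0.07 (adjusted p 0.780).

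Among the partners of Mbd2 and Mbd3, all 13 NuRD genes were tested, and the median was 0.12. Of these 13, 1 was higher and 0 were lower, against 11.3% and 9.92% of all genes tested. That gene was Chd4, the main remodeling ATPase of NuRD and its most abundant gene here with a mean of 6589 normalized counts, and it rose by 0.46 (SE 0.14, adjusted p 0.00844). Chd3 and Rbbp7 were next in abundance, with 0.18 (adjusted p 0.378) and 0.27 (adjusted p 0.146). Other genes of the methyl-CpG binding domain and zinc finger reader families gave 1 call among 7 tested, and 2 of these 7, Mbd5 and Mbd6, encode proteins whose domain is not known to bind methylated DNA. Zbtb4, a zinc finger reader, rose by 0.39 (SE 0.14, adjusted p 0.0315), but not after centring (adjusted p 0.0827). Zbtb38, another zinc finger reader, had 0.24 (adjusted p 0.135). Mbd3l1 was listed at 0.

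The remaining lists gave 0 calls. None of 7 tested genes with CXXC domains differed by the deposited DESeq2 test, with 0 also at an unadjusted p under 0.05, and their values ran from -0.24 to 0.06. Kdm2a and Kmt2b, for example, had -0.05 and 0.06, and Kmt2a, which had no p-value, 0.18 (SE 0.18). Of 13 tested genes of the methyl donor cycle 0 differed, with 3 at an unadjusted p under 0.05. Ahcyl2 and Mat2a, which makes the methyl donor S-adenosylmethionine, had 0.23 (adjusted p 0.359) and -0.28 (SE 0.12, adjusted p 0.0690), and after centring the adjusted p of Mat2a was 0.0195. Germline genes that promoter methylation silences in body cells were mostly scarce. Of 16 listed, 3 had a mean of 0 and 4 were tested, with 0 calls and 0 at an unadjusted p under 0.05, and values from -0.45 to -0.20. Brdt (91.9 normalized counts) and Sycp3 (26.0) were the highest of them. Brdt, whose mean was above that of Dnmt3b, had -0.20 (SE 0.24, adjusted p 0.603), and Sycp3 had -0.31 (SE 0.38, adjusted p 0.623).

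**Figure D5:**
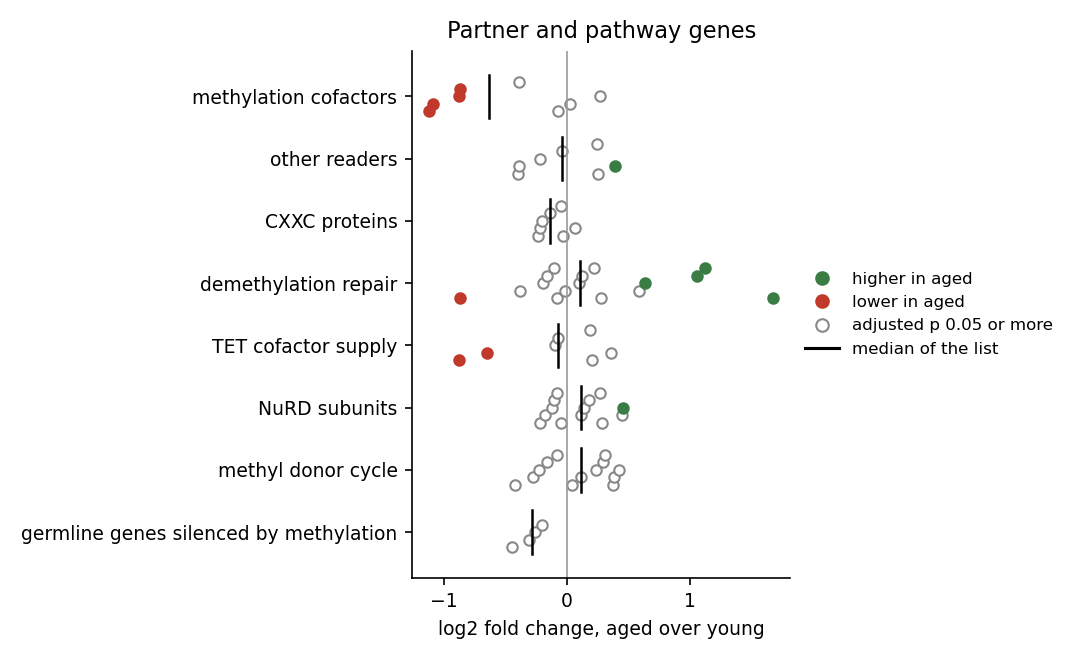
Log2 fold change, aged over young (x axis), of each tested gene in 8 lists of partner and pathway genes, with the median of each list as a black bar and genes with an adjusted p under 0.05 filled (green higher, red lower). The 4 filled points of the methylation cofactors all lie at -0.87 or farther left, and Apobec1, at 1.68, is the point farthest to the right.

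Markers of the cells in this tissue were measured because several members are expressed in more than 1 cell type. For the counts that follow, 11.3% of all genes tested were higher in aged mice and 9.92% were lower. RPE markers were abundant, with Ttr and Rgr at 99322 and 92190 normalized counts, and 2 of 7 tested were higher, Rgr and Best1, with a median log2 fold change of 0.34. The call of Best1 was lost without the filter on low counts (adjusted p 0.0573) and after centring (adjusted p 0.0696), which left 1. Melanocyte markers, led by Dct and Tyrp1 and shared in large part with RPE, had a median of 0.05 with 1 of 7 lower. Endothelial markers, led by Kdr and Flt1, had -0.17 with 1 of 7 lower, and rod photoreceptor markers, Sag among them, had 0.22 with 0 of 8 called and a median SE of 0.40. Most macrophage, T and NK cell and mast cell markers rose. Macrophage markers, led by Lyz2 (no p-value) and Csf1r, had a median of 1.92, with 10 of 11 tested genes higher and a summed level of 17530 normalized counts in young and 108408 in aged mice. The call of Csf1r was lost after centring (adjusted p 0.0801), which left 9. Lyz2 carried much of the sum, which without it was 13256 in young and 35541 in aged mice. T and NK cell markers, led by Cd4 and Gzma, had 8 of 10 higher (sum 167 and 715). Cd4, at 76.4 in young and 407 in aged mice, made the largest part of that sum, and with a mean of at least 100 normalized counts required it was the 1 call left. Of the mast cell markers, led by Kit and Cma1, 6 of 7 were higher (sum 1211 and 2668). Kit was the mast cell marker that was not higher, at -0.33 (adjusted p 0.143), and without it the sum was 360 in young and 1992 in aged mice. Of the B and plasma cell markers, led by Jchain and Cd79b, only Jchain of 6 was higher, and the other 5 summed to 170 in young and 207 in aged mice. Fibroblast and matrix genes, led by Col1a2 and Col1a1, had 5 of 8 lower and 1 higher, with a sum of 308073 in young and 128770 in aged mice. The collagen genes Col1a1 (-2.91), Col1a2 (-1.80) and Col3a1 (-2.14) carried the fall of that sum, and Fbn1 and Postn were also lower. Dcn was the gene that was higher, at 0.51 (SE 0.13, adjusted p 0.00139). Lum and Pdgfra had 0.26 (adjusted p 0.197) and 0.21 (adjusted p 0.308). No marker on these lists stood at 0. The macrophage, T and NK cell and mast cell lists thus moved mostly upward with age beside the members. In the fibroblast and matrix list genes moved in both directions. The part of any of these cell types in the changes of Tet1, Tet2, Dnmt3a, Mbd2 and Mbd3 was not tested.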

How the data were processed

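RNA of 3 young and 3 aged RPE/choroid samples had been depleted of ribosomal RNA, not selected for poly(A), and made into stranded libraries. Per the written methods, the authors trimmed the reads (BBDuk), mapped them to the Ensembl annotation of GRCm38 (STAR), quantified transcripts (Sailfish), normalized to the total count and ran DESeq2. The deposited file is the outcome of that run, and 0 of its columns name a sample, so the depth per library is unknown here. Its baseMean is a normalized signal, which the authors averaged over the 6 libraries. The authors deposited log2 fold changes with standard errors, a Wald score, and p-values with their Benjamini-Hochberg adjustment. The median SE was 0.24 among genes with a mean under 2 and 0.43 among tested genes with a mean under 30. Such small SEs at almost no reads do not come from unshrunken estimates, so the fold changes were shrunken toward 0, and they, the intervals and the group means derived from them understate changes of scarce genes. How strand entered the counting is not given in the sources used here.

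No count model was fitted. Genes were called at a deposited adjusted p under 0.05 over the 18636 genes tested, and only under the alternatives was p adjusted anew, after centring with Wald p-values from the shifted fold change and the deposited SE. The p and its adjustment were recomputed from the file to within 0.449% and 0.572%, with code tested on simulated data. The sign was reversed to give aged over young. Intervals are 1.96 SE on each side, and group means follow from the mean, the fold change and equal group sizes.

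The 9 members, 8 wider lists and 10 marker lists were chosen with earlier results of these data known. All members are named, with the genes of each wider list that differ (at most 6) and up to 2 of the most abundant that do not, and the 2 most abundant of each marker list. Other genes were named after their values were seen, and 2 genes that this rule selects are not reported here. Positions and lengths are from GENCODE M21 (GRCm38), and older symbols and promoter windows from RefSeq (GRCm38.p6). Python 3.11.15, pandas 2.3.3 and scipy 1.17.1 were used.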

Additional observations from a re-analysis of the deposited data

How the results depend on the processing

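No paired analysis was possible because single libraries have no values in the file, and so fits without each replicate, with a replicate block or with other tests and scalings were not run. Of the 5 members that differ, 3 were left by an adjusted p under 0.01 (Tet1, Tet2 and Mbd3) and 1 by a required change of 1 log2 unit or more (Tet1), both stricter by construction. Without the filter on low counts 4 remained, as Dnmt3a was lost, and under a mean of at least 100 normalized counts, under centring and with the Wald p for genes without a p-value the 5 were the same genes. Centring subtracted 0.06, the median log2 fold change of abundant genes, and gave 3944 calls over all genes, 1655 higher and 2289 lower, in place of 2100 higher and 1849 lower. The 2 higher and 3 lower members kept their calls under it, and the median of the members became -0.40. The wider lists gave 13 calls among 75 tested genes (21.2% of all genes tested differed), 5 under the required change of 1 log2 unit, and 10 with a mean of at least 100 normalized counts. After centring the number was again 13, with Uhrf2 and Mat2a, both lower, in place of Zbtb4 and Neil2. For the levels per kilobase, the rank correlation with the order printed was 0.617 when the median transcript length was used and 0.633 without division by length, so that order depends on the length chosen. The smallest log2 change called was 0.29 to 0.34 at the abundance of 8 members and 0.57 at that of Dnmt3b.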
